A study of Mus musculus with 36 samples.

Results

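Fasted mouse livers labelled as lacking Vps15 were compared with fasted wild-type livers across all genes of the liver count table. The comparison took 6 libraries, 3 per genotype, of the 12 liver libraries and 36 libraries in the series, and they were chosen by their labels alone. Both groups were 4-week-old males that had fasted for 24 h and were killed at zeitgeber time 14, early in the dark phase. The controls carry the genotype label WT, with nothing more on their alleles or strain. The other mice carry the label Ttr CRE+, Vps15f/f and are called Vps15iLKO in the study's design: Cre recombinase driven by the transthyretin promoter, which is active in hepatocytes, is meant to remove a floxed part of both Vps15 alleles there, while the other cells of the liver keep them. RNA was extracted from powdered frozen liver and enriched for poly(A), so each library holds RNA of all liver cells although the cell type label reads hepatocyte. The labels do not say that each library is a separate mouse, and p-values therefore measure only the spread between these libraries, which may be partly technical. Fed livers with the same genotype labels share no library with this comparison. They were fitted together with the fasted ones, so they shared in the choice of tested features, the scaling and the estimate of spread, and they also served to test where the contrast differed between the states. With the 6 fasted libraries alone 12370 of 21896 tested features passed the test, against 13422 of 23875 in the joint fit.

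Vps15, which the gene Pik3r4 encodes, is a regulatory protein of class 3 phosphoinositide 3-kinase. With the catalytic subunit Vps34 it makes phosphatidylinositol 3-phosphate on endosomes and on forming autophagosomes, and thus serves both endosome sorting and autophagy, the delivery of a cell's own contents to lysosomes. A fasting hepatocyte is known to raise autophagy, to oxidise fatty acids and release ketone bodies under the nuclear receptor PPARα, and to make glucose from lactate, glycerol and amino acids under glucagon and glucocorticoids.

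Expression is given as CPM, read counts brought to a common library size, after scaling by edgeR's trimmed mean of M-values (TMM), for libraries a, b and c of each group. A gene is said to rise or fall where edgeR's quasi-likelihood F test gave a Benjamini-Hochberg adjusted p under 0.05, and changes are log2 fold changes, knockout minus wild type, ± standard error, from 3 libraries per group. The 3 wild-type libraries held 9110836 to 9933576 counts and the 3 knockout libraries 11642585 to 12870944. Of 136300 listed features 23875 had enough counts to be tested, and 14422 of these were Ensembl genes. In knockout livers 6722 features (28.2%) were higher and 6700 (28.1%) lower, 13422 or 56.2% in all, and the knockout and wild-type libraries did not overlap for 14719 features (61.7%). A gene group's count is to be read against this background, in which the median change was 0.01 over all tested features and 0.06 over the Ensembl genes. The TMM factors were 0.801 to 0.806 in wild-type and 1.11 to 1.19 in knockout libraries. Scaling by library size alone moved the median change up by 0.51 and gave 11731 higher and 3576 lower features, so that 76.6% of calls were higher where TMM gave 50.1%. All changes here are relative to the TMM scaling, and where the other scaling turns a group's sign, or moves the share of higher among its calls by over 10 percentage points, its counts are given beside it. Small falls turn too: those of Clec4g, Creb3l3, Ephx1, Gaa, Ifnar2, Reln, Sc5d, Scarb2, Slc16a1, Stard4 and Tfeb, named below, became changes of 0.0033 to 0.25 with library sizes alone. Members that moved against their group are named, after their values were seen, where there were 5 or fewer, except a few that are not reported here. Where leaving out 1 library changes a gene's call, the adjusted p without that library follows it, and where it moves a change by over 1.5-fold the change without it follows. On the first principal component, which held 85.4% of the variance, knockout library b lay somewhat nearer to wild type (72.2) than a and c (86.8 and 83.4), and leaving out each library in turn gave 12359 to 12900 calls. Replicate libraries correlated at 0.982 to 0.988 (Pearson's r of log2 CPM, across genes) and libraries of different genotype at 0.866 to 0.892.

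Pik3r4 (ENSMUSG00000032571, chromosome 9, 105642978 to 105687657, plus strand), placed on mm10, is the gene that Cre is meant to delete. It stood at 21, 24.7 and 21.2 CPM in wild-type and 21.1, 24 and 18.2 CPM in knockout livers, so the groups overlapped, with a change of −0.08 ± 0.14 (adjusted p = 0.663). Whole-gene counts say nothing of a deletion of single exons if the remaining transcript persists, and the other cells of the liver keep the gene. The livers are therefore knockout by label, and are called knockout below in that sense. The plot of change against level shows how widely the other genes moved.

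**Figure D1:**
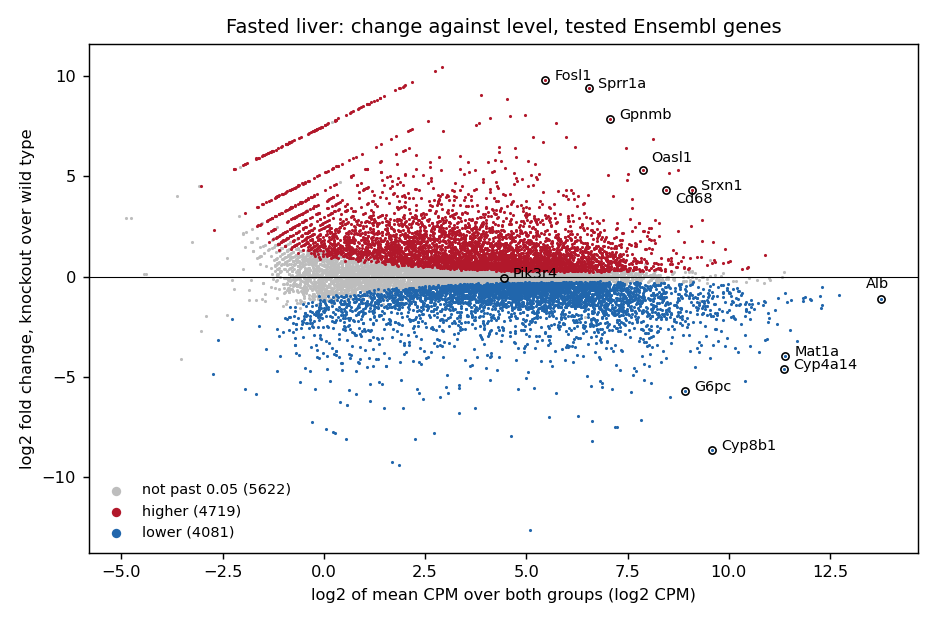
Log2 fold change (knockout over wild type) against the log2 of the mean CPM of both fasted groups, 1 point for each of 14422 tested Ensembl genes, coloured by edgeR's call at an adjusted p under 0.05. Rises (4719) and falls (4081) both span the range of levels, most of the most abundant transcripts lie below 0, and the diagonal streaks at the left are genes with 0 or few counts in wild type.

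Among the 7 subunits of the class 3 kinase complexes 1 rose and 2 fell. Pik3c3, the catalytic subunit Vps34, was at 20.1, 21 and 17.6 CPM in wild-type and 18.2, 19.5 and 21 CPM in knockout livers (−0.00 ± 0.12, adjusted p = 0.98), with overlapping groups. Atg14, the subunit that directs the kinase to autophagosome formation, fell from 23.6, 25.3 and 24.3 to 11.7, 12.4 and 12 CPM (−1.02 ± 0.14, adjusted p = 1.69e-05). All knockout libraries lay at about the same low level. Nrbf2, an accessory subunit of the same complex, fell by less (−0.68 ± 0.16). Becn1, the scaffold Beclin 1, rose (0.46 ± 0.13), while Uvrag, a subunit of the endosomal complex, was at −0.12 (adjusted p = 0.481, 0.035 without knockout library c) and its inhibitor Rubcn at −0.13 (adjusted p = 0.372). The median of these 7 genes, Pik3r4 included, was −0.12 and turned to 0.39 (5 higher and 1 lower with library sizes alone). Under that scaling Pik3r4 was at 0.44 (adjusted p = 0.0151) and Pik3c3 at 0.51 (adjusted p = 0.00199).

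Genes for building autophagosomes were lower and the cargo receptor p62 was higher. Of 17 autophagosome genes 12 fell and 2 rose, Atg2a (0.58) and Atg7 (0.34, adjusted p 0.0573 to 0.232 without knockout library a or c or wild-type library b or c), with a median of −0.61 (−0.10, 4 higher and 7 lower with library sizes alone). Ulk1, the kinase that starts autophagy, fell from 224, 242 and 269.9 to 123, 115 and 134 CPM (−0.99 ± 0.14). Atg5 (−1.25 ± 0.13), Atg3 (−1.10 ± 0.13) and Atg16l1 (−0.86 ± 0.13), which attach LC3 to membranes, fell alike, and Atg101 of the Ulk1 complex fell by 1.29 ± 0.13. Of 18 cargo receptors and LC3 family members 3 rose (Sqstm1, Fundc1 and Tollip) and 9 fell (median −0.27), a split that turned to 9 and 2 (median 0.24) with library sizes alone. Sqstm1, which encodes the receptor p62, was 609, 640.2 and 578 CPM in wild type and 962, 960.4 and 1114 CPM in knockout livers (0.73 ± 0.12, adjusted p = 7.37e-05), higher in every knockout library. The mitophagy receptor Bnip3 fell from 229.5, 237 and 196 to 52.4, 73.1 and 54.1 CPM (−1.88 ± 0.17). The LC3 relative Gabarapl1 fell by 1.18 ± 0.21.

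Lysosomal genes moved the other way. Of 45 lysosome genes and targets of TFEB, the transcription factor of lysosome formation, 32 rose and 5 fell (median 0.69; 40 higher and 1 lower with library sizes alone), the falls being Lamp2 (−1.03), Npc1 (−0.52), Gaa (−0.51), Tfeb and Scarb2 (−0.26, adjusted p 0.058 to 0.2 without knockout library a, b or c or wild-type library a, b or c). Gla, the lysosomal α-galactosidase, rose from 5.15, 7.01 and 6.46 to 31.2, 27.2 and 29.4 CPM (2.23 ± 0.19). Asah1, acid ceramidase, rose by 1.67 ± 0.14. Npc2, which carries cholesterol out of lysosomes, rose by 1.44 ± 0.10. The protease Ctsd rose by 0.45 ± 0.12, whereas the membrane protein Lamp1 was at 0.05 (adjusted p = 0.786) and Tfeb itself fell slightly (−0.38 ± 0.11). Gpnmb, a lysosomal membrane protein that is also a marker of lipid-laden macrophages, rose the most of this list, from 1.55, 0.877 and 0.962 to 356, 213 and 235 CPM (7.88 ± 0.47, adjusted p = 6.07e-09). In the same libraries 19 of 20 macrophage markers were higher, with sums of 953 to 1293 CPM in wild-type and 3293 to 3921 CPM in knockout livers, and their part in the lysosomal rise was not tested.

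Some regulators of the fasting programme were far lower in knockout livers. Ppargc1a, the coactivator PGC-1α, fell from 50.6, 30.2 and 26.3 to 5.16, 8.99 and 4.56 CPM (−2.51 ± 0.28, adjusted p = 1.82e-06). Klf15, a fasting-induced regulator of amino acid use, fell from 388, 454 and 422 to 40.4, 57.7 and 48.4 CPM (−3.11 ± 0.20). The receptor Ppara (−1.10 ± 0.18) and its partner Rxra (−0.92 ± 0.12) fell, as did Foxo1 (−1.16 ± 0.15) and Foxo3 (−1.33 ± 0.17), mediators of low insulin. Creb3l3, a liver activator that works with PPARα, fell by less (−0.42 ± 0.14, adjusted p = 0.0194, 0.0694 to 0.0827 without knockout library b or wild-type library a or b). The orphan receptor Nr4a1 rose (2.28 ± 0.31). In all, 18 of 27 regulators fell and 2 rose, Nr4a1 among them, with a median of −0.55 (−0.04, 6 higher and 7 lower with library sizes alone).

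Most target genes of PPARα were lower, and a few rose. Cyp4a14, a fatty acid ω-hydroxylase, was at 5176, 5123 and 4989 CPM in wild type and 119.6, 360.1 and 146 CPM in knockout livers (−4.61 ± 0.51, adjusted p = 1.85e-06; −5.26 without knockout library b). Knockout library b lay above a and c, and all 3 lay far below wild type. Retsat, which saturates retinol, fell from 1723, 1805 and 1762 to 142, 222 and 125 CPM (−3.44 ± 0.27). The fatty acid transporter Slc27a2 fell by 2.73 ± 0.18. Angptl4, a secreted inhibitor of lipoprotein lipase, fell by 1.83 ± 0.18. Fgf21, the fasting hormone of the liver, was at 60.1, 52.7 and 50.7 CPM against 39.1, 20.6 and 45.5 CPM and did not pass the test (−0.64 ± 0.37, adjusted p = 0.158). Against the rest, Pdk4, which spares pyruvate in fasting, rose from 43.2, 68 and 76 to 168, 161 and 167 CPM (1.41 ± 0.26). Fabp4, a fatty acid binding protein of fat cells and macrophages, rose by 2.73 ± 0.20. Of 32 tested targets 23 fell and 7 rose (median −1.44).

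Genes of nearly every step of fatty acid oxidation were lower. Of 27 genes of mitochondrial β-oxidation and carnitine transport 26 fell (median −1.55) and 1 rose, the acyl-CoA synthetase Acsl5 (0.36, adjusted p 0.0502 to 0.0833 without knockout library c or wild-type library a). Acsl1, which activates long-chain fatty acids, fell from 1722, 2610.0 and 2356 to 148, 207 and 141 CPM (−3.75 ± 0.27). Cpt1a, the carnitine transferase that gates entry to mitochondria, fell from 1091, 1005 and 987 to 315, 344 and 356 CPM (−1.60 ± 0.16), with the knockout libraries close together and none overlapping wild type. Cpt2 (−1.73 ± 0.12), the dehydrogenase Acadm (−1.40 ± 0.12), the trifunctional subunit Hadha (−1.19 ± 0.12) and the thiolase Acaa2 (−1.96 ± 0.12) followed. In peroxisomes, 23 of 26 genes fell and 0 rose (median −1.34). The reductase Pecr fell from 133, 139 and 115 to 10.3, 20.6 and 14.6 CPM (−3.09 ± 0.20). Phyh, which degrades phytanic acid, fell by 2.07 ± 0.15.

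Genes of ketone synthesis fell as well, while that of ketone use rose. Acat1, which joins and splits acetyl-CoA units, was at 817, 747 and 677 CPM in wild type and 143, 237 and 141 CPM in knockout livers (−2.10 ± 0.19, adjusted p = 2.37e-07). No knockout library came near the wild-type range. Bdh1, which makes β-hydroxybutyrate, fell by 1.54 ± 0.13. Oxct1, the enzyme that uses ketone bodies and is nearly silent in hepatocytes, rose from 2.71, 4.01 and 2.89 to 9.82, 10.2 and 6.76 CPM (1.48 ± 0.23). The transporter Slc16a6 rose (0.98 ± 0.17) and Slc16a1 fell (−0.42 ± 0.14, adjusted p = 0.0198, 0.0809 to 0.124 without knockout library c or wild-type library b or c). Of the 9 genes 5 fell and 2 rose, and their median of −0.42 was 0.09 with library sizes alone.

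Genes of the lipid droplet divided by member. The coat proteins Plin2 (730.2, 803 and 742 to 1179.9, 1159 and 1438 CPM, 0.73 ± 0.14) and Plin3 (1.81 ± 0.12), the fusion protein Cidec (1.58 ± 0.19) and the lipase inhibitor Hilpda (2.01 ± 0.22) rose. Plin5, a coat protein of oxidising cells, fell (−1.50 ± 0.13), as did Cideb (−1.52 ± 0.14), which loads lipid onto lipoproteins, and Mgll, the lipase for monoglycerides (−2.10 ± 0.17). Pnpla2, the triglyceride lipase ATGL, was at 608, 608 and 553 and 551, 513 and 646 CPM (−0.05 ± 0.15, adjusted p = 0.801, and 0.46 with an adjusted p of 0.00937 with library sizes alone), with overlapping groups. Of 21 members 9 rose and 11 fell, and the median of −0.41 became 0.10, 10 higher and 8 lower with library sizes alone.

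Genes of glucose synthesis were lower over the whole path. Pck1, which starts it from oxaloacetate, fell from 3268, 3409 and 3654 to 302, 571 and 300.4 CPM (−3.14 ± 0.27, adjusted p = 1.45e-07). G6pc, the glucose 6-phosphatase at its end, fell from 867, 897 and 1112 to 8.29, 37.9 and 8.74 CPM (−5.70 ± 0.68, adjusted p = 4.03e-06; −6.81 without knockout library b), with knockout library b several-fold above a and c. Fbp1 (−3.77 ± 0.32), the glucose 6-phosphate transporter Slc37a4 (−3.01 ± 0.20), pyruvate carboxylase Pcx (−1.88 ± 0.13) and the glucagon receptor Gcgr (−1.87 ± 0.11) fell too. Of 26 members 22 fell and 2 rose (median −1.63), Pdk4 and Pck2, the mitochondrial form of Pck1 (2.06).

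Nearly all enzymes that break down amino acids were lower: 47 of 49 fell (median −2.41) and 1 rose, the serine dehydratase relative Sdsl (1.17). Hal, which opens histidine breakdown, fell from 619, 411 and 464 to 23.3, 22.6 and 22.9 CPM (−4.44 ± 0.23, adjusted p = 1.96e-09). Its knockout libraries were nearly equal. Sds, serine dehydratase (−4.09 ± 0.37), Tat, tyrosine aminotransferase (−3.12 ± 0.21), Tdo2, which opens tryptophan breakdown (−2.48 ± 0.22), and Prodh2 (−3.16 ± 0.18) fell. The urea cycle fell in all 14 members (median −2.03): Cps1, its entry enzyme, went from 3513, 3252 and 2914 to 169, 284 and 255 CPM (−3.77 ± 0.25). Otc fell by 3.55 ± 0.31. Asl fell by 3.26 ± 0.24. The liver glutaminase Gls2 fell by 3.98 ± 0.30.

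The methionine cycle, which makes the methyl donor S-adenosylmethionine (SAM), had 14 of 21 listed genes lower and 2 higher (median −0.99; 5 higher and 10 lower with library sizes alone). Mat1a, the SAM synthetase of hepatocytes, fell from 5580.0, 4815 and 4807 to 208, 497 and 270.3 CPM (−3.96 ± 0.32, adjusted p = 7e-08), whereas Mat2a, the form of other and dividing cells, was at 139, 135 and 101 and 97.8, 118 and 109 CPM (−0.21 ± 0.13, adjusted p = 0.203, 0.0495 without wild-type library c), with overlapping groups. Bhmt, which remakes methionine from betaine, fell from 3252, 2574 and 2093 to 29.4, 114 and 71.4 CPM (−5.20 ± 0.50), the lowest change of the list. The SAM-using enzymes Gnmt (−3.21 ± 0.30), Gamt (−3.21 ± 0.19), Nnmt (−3.05 ± 0.23) and Pemt (−2.06 ± 0.14) and the hydrolase Ahcy (−2.38 ± 0.16) all fell. The rises were the methionine synthase Mtr (0.73) and the salvage enzyme Enoph1 (1.11). Of 40 histone and DNA methyltransferases, which consume SAM, and demethylases 10 rose and 9 fell (median 0.00). With library sizes alone 25 were higher and 1 lower (median 0.52), so whether the list has a common direction depends on the scaling. Dnmt1, the maintenance DNA methyltransferase, rose (1.80 ± 0.15) and so did its partner Uhrf1, from 2 counts over the 3 wild-type libraries to 164 over the knockout ones (45.3-fold, 12.4 to 378, exact 95% counting interval; at least 9.94-fold without wild-type library b, which held both), both of which dividing cells are known to express, while Kmt2c (−0.74 ± 0.13) and Setd1b (−0.89 ± 0.13), histone H3 lysine methyltransferases, fell. Of 25 subunits of chromatin remodelling complexes 5 rose and 7 fell (median −0.00). With library sizes alone 18 were higher and 3 lower (median 0.51). In the TMM-scaled fit, leaving out 1 library brought the rises down to between 2 and 3 for knockout b and c and wild-type a and c.

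**Figure D2:**
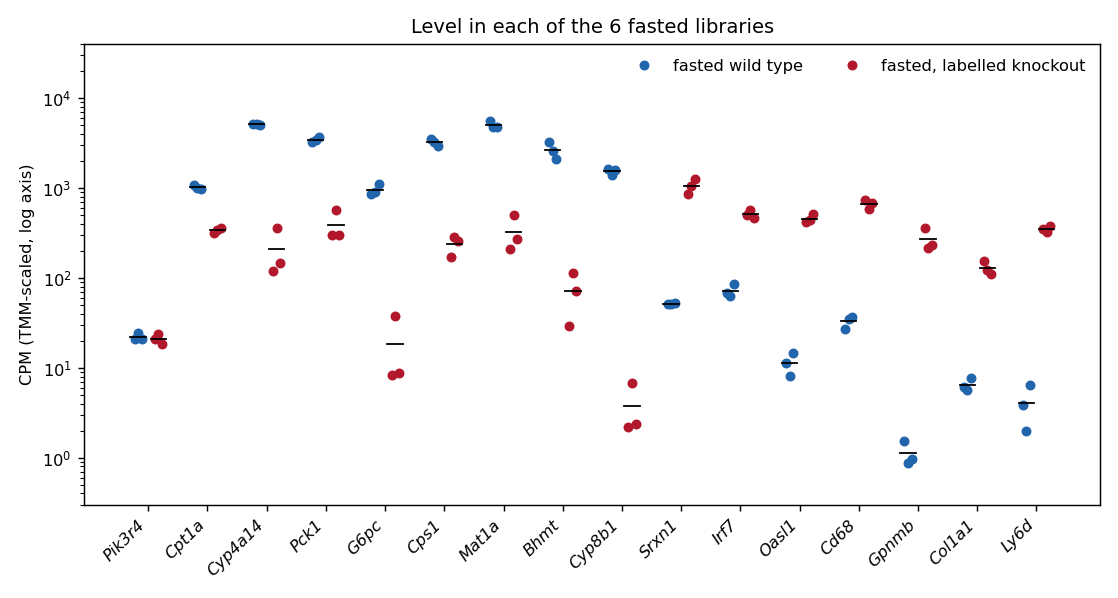
CPM (TMM-scaled, log axis) of 16 genes named in the text in each of the 3 wild-type and 3 knockout fasted livers, with 1 point per library and a bar at each group's mean. The groups overlap for Pik3r4 alone. Knockout library b, the middle point, is the highest of its group for genes that include Pik3r4, Cyp4a14, Pck1, G6pc, Cps1, Mat1a, Bhmt and Cyp8b1.

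Bile acid synthesis was lower, with 2 of its enzymes among the 12 largest falls of all genes. Cyp8b1, which makes cholic acid, was at 1638, 1398 and 1601 CPM in wild type and 2.18, 6.81 and 2.36 CPM in knockout livers (−8.66 ± 0.80, −9.40 without knockout library b). Cyp7a1, the rate-setting enzyme, went from 70.9, 47.6 and 29.6 to 0.0727, 0.409 and 0.0760 CPM (−7.93 ± 0.97, −9.17 without knockout library b). Its knockout values rest on a few counts per library. Uptake transporters fell (Slc10a1 −4.50 ± 0.28, Slco1b2 −3.41 ± 0.29), and the export pump Abcb11 fell by less (−1.38 ± 0.21). The conjugating enzyme Baat fell by 3.27 ± 0.17. Abcc4, an efflux pump on the blood side, rose from 5.54, 6.39 and 7.70 to 60.7, 82.5 and 73.9 CPM (3.47 ± 0.22). Of 26 tested members 21 fell and 2 rose (median −1.87), Abcc4 and the blood-side exporter subunit Slc51b (3.07, 1.88 without knockout library c, adjusted p 0.0534 without knockout library c).

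Genes of cholesterol synthesis mostly rose where those of most metabolic paths fell. Of 25 genes of the pathway and of its regulator SREBP2 14 rose and 5 fell (median 0.68; 20 higher and 2 lower with library sizes alone). The list's summed level overlapped between groups, at 2549 to 2967 CPM in wild-type and 2904 to 3359 CPM in knockout livers. Sqle, squalene epoxidase, rose from 26.4, 36.2 and 22.3 to 104, 108 and 111 CPM (1.92 ± 0.21, adjusted p = 1.71e-06). All knockout libraries lay above all wild-type ones. Hmgcs1, an early enzyme of the pathway, rose by 1.55 ± 0.19. Later steps fell, with Ebp at −1.79 ± 0.11, Tm7sf2 at −1.30 ± 0.16 and Sc5d at −0.33 (adjusted p 0.0544 to 0.114 without knockout library a or c or wild-type library a, b or c), as did the sterol carrier Stard4 (−0.44, adjusted p 0.0696 to 0.285 without knockout library a or b or wild-type library b or c).

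Of 34 genes of fat synthesis and glycolysis 9 rose and 16 fell (median −0.56). With library sizes alone 12 were higher and 9 lower (median −0.05). Thrsp, a lipogenic regulator, fell from 119, 121 and 122 to 10.9, 8.58 and 12.3 CPM (−3.51 ± 0.22). Scd1, the liver's fatty acid desaturase, fell by 0.69 ± 0.20. Scd2, the desaturase of other tissues, rose (2.42 ± 0.19), as did Pkm, the pyruvate kinase of cells other than hepatocytes (2.15 ± 0.14), while Fasn, fatty acid synthase, was at −0.18 (adjusted p = 0.374) in these fasted livers. Lipoprotein genes fell in 17 of 20 members (median −1.21), among them Apoa5 (−1.70 ± 0.13), Apob (−1.18 ± 0.13) and the loading protein Mttp (−0.57 ± 0.12). The phospholipid transfer protein Pltp rose (0.87), and Apoa4 was at −0.18 ± 0.23 (adjusted p = 0.526).

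Markers of hepatocytes fell as a group beside all these paths. All 18 markers fell (median −1.51). Their summed level was 58233 to 59035 CPM in wild-type and 18653 to 22156 CPM in knockout livers. Albumin (Alb) fell from 18109.5, 19339.9 and 19129.9 to 8360.3, 8441 and 9517 CPM (−1.10 ± 0.13). Ttr, whose promoter drives the Cre, fell by 1.17 ± 0.12. In whole liver, fewer hepatocytes and less RNA per hepatocyte cannot be told apart, and the part of this shift in the falls of metabolic genes was not tested. The medians of amino acid breakdown (−2.41), of the urea cycle (−2.03) and of gluconeogenesis (−1.63) lay below the median of the markers, and the respiratory chain's (−1.10) above it.

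Factors that set hepatocyte identity fell in 18 of 25 cases (median −0.92) and rose in 2, Esr1 and Zfp609 (0.40, adjusted p 0.0531 without wild-type library a). Hnf4a, the central one, fell from 878, 1202 and 1020.4 to 462, 477 and 644 CPM (−0.97 ± 0.14). The bile acid receptor Nr1h4 (−1.78 ± 0.13), Cebpa (−1.42 ± 0.14) and the xenobiotic receptor Nr1i3 (−2.95 ± 0.20) fell, and the oestrogen receptor Esr1 rose from 38.4, 26.9 and 32.6 to 125, 128 and 129 CPM (1.96 ± 0.14). Of 40 cytochrome P450 genes of drug metabolism 25 fell and 12 rose (median −1.65), among them Cyp2e1 (from 5905, 5708 and 6135 to 435, 746 and 765 CPM, −3.19 ± 0.20) and, in the other direction, Cyp1a2 (0.96 ± 0.17). Conjugating enzymes fell in 29 and rose in 8 of 45 (median −1.29), with the glutathione transferases Gstm3 (5.15 ± 0.33) and Gsta1 (7.65 ± 0.43, 8.33 without wild-type library a) among the rises. Members of the P450, glutathione transferase, 2′-5′ oligoadenylate synthetase and major urinary protein families resemble each other closely, so how reads were divided among them is uncertain.

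The growth hormone axis and plasma proteins followed the hepatocyte markers. Ghr, the growth hormone receptor, fell from 351, 391 and 416 to 67.1, 101 and 83.7 CPM (−2.20 ± 0.15). Igf1 fell by 1.53 ± 0.14. Igfals, which carries IGF1 in blood, fell by 2.73 ± 0.21, and 13 of 22 genes fell (median −1.11; 6 higher and 10 lower with library sizes alone). The 3 rises were the receptor Igf2r (1.13 ± 0.12), the kinase Jak2 (1.06) and the signalling inhibitor Cish (1.93, 1.27 without knockout library b, adjusted p 0.0541 to 0.156 without knockout library b or wild-type library a, b or c). Proteins of coagulation and complement fell in 31 of 36 cases (median −1.40; 5 higher and 28 lower with library sizes alone), among them F7 (−2.24 ± 0.12), F10 (−2.19 ± 0.14), C9 (−2.69 ± 0.26) and, by less, C3 (−0.54 ± 0.13), and 1 rose, F11 (0.71).

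Respiratory chain transcripts fell together within a narrow range. Of 75 nuclear subunit genes 74 fell (median −1.10), all but Cycs (−0.30, adjusted p = 0.165, 0.0211 without wild-type library c), in a range from −1.59 to −0.30, and all 13 genes encoded in mitochondria fell (median −1.39). Uqcrq of complex 3 fell from 341, 276 and 275 to 122, 130.1 and 126 CPM (−1.24 ± 0.11). The mitochondrial share of counts was 3.29 to 3.65% in wild-type and 2.22 to 2.44% in knockout libraries. In the citric acid cycle 22 of 24 genes fell (median −0.97, 2 higher and 17 lower with library sizes alone), with Fh1, fumarase, at −2.15 ± 0.15, while citrate synthase, Cs, was at 0.24 ± 0.11 (adjusted p = 0.0761, 0.0346 to 0.0499 without knockout library a or wild-type library b) and Idh3a at −0.17 (adjusted p = 0.288).

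**Figure D3:**
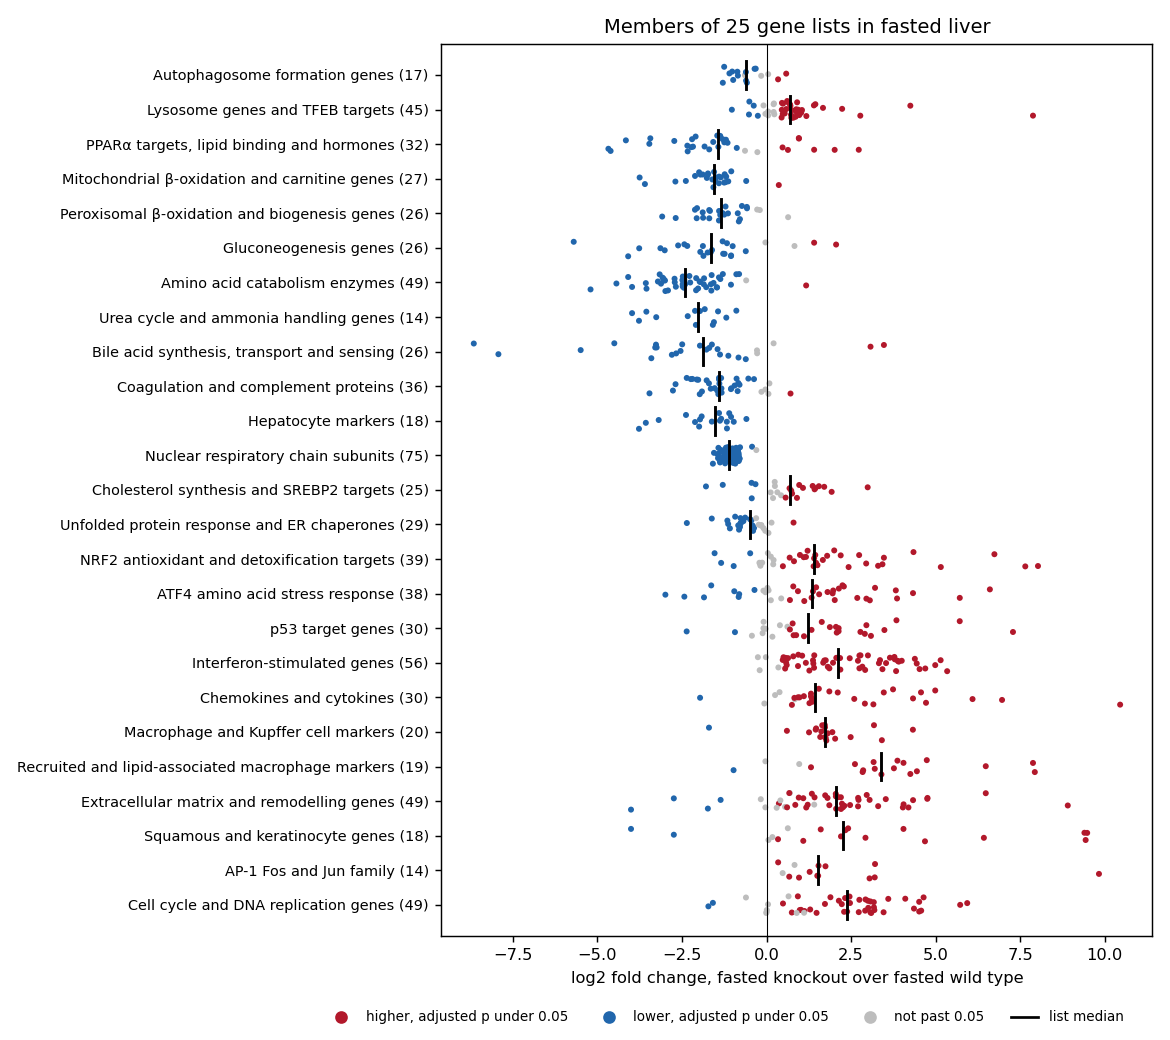
Log2 fold changes (knockout over wild type) of the tested members of 25 gene lists, 1 point per gene, coloured by edgeR's call, with a line at each list's median. Lists of hepatocyte metabolism lie mostly to the left of 0, respiratory chain subunits lie in a narrow band, and lists of antioxidant, interferon, macrophage, matrix and cell cycle genes lie mostly to the right.

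Stress responses differed by branch. NRF2, the factor that answers oxidants and is known to accumulate when p62 holds its inhibitor KEAP1, had 27 of 39 listed targets higher and 4 lower (median 1.39), the latter being Gsta3 (−1.54), Mgst1 (−1.34), Prdx6 (−0.97) and Ephx1 (−0.48), which hepatocytes make in quantity. Srxn1, sulfiredoxin, rose from 50.9, 51.2 and 52.5 to 847, 1049 and 1244 CPM (4.34 ± 0.18, adjusted p = 4.68e-10). The cystine importer Slc7a11 rose from 0.387, 0.125 and 0 to 44.9, 52.8 and 46.4 CPM (8.02 ± 0.37, 9.33 without wild-type library a). No library of either group overlapped the other for these genes. The pentose phosphate enzymes Pgd (3.43 ± 0.12) and G6pdx (2.94 ± 0.17), the reductases Nqo1 (2.74 ± 0.23) and Cbr3 (6.74 ± 0.26) and Gclc, which limits glutathione synthesis (1.79 ± 0.13), rose with them. The core of the antioxidant response element, TGACNNNGC on either strand, stood in the RefSeq promoter windows (GRCm38.p6, 250 bases before to 50 after the start) of 12 of 32 targets that have one (37.5%), and in 16.8% of those of all tested genes. Genes with a match included Srxn1, Pgd, G6pdx and Abcc4 among the rises, Gsta3 and Mgst1 among the falls, and others that did not pass the test. Targets with a match thus did not all rise. A match describes letters and is not a site shown to be used.

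The amino acid response of ATF4 rose in 24 of 38 genes and fell in 8 (median 1.35; 30 higher and 4 lower with library sizes alone), while Atf4 itself was at 142, 144 and 145 and 152, 110.4 and 186 CPM (0.06 ± 0.16, adjusted p = 0.778). The list's summed level was nonetheless lower, at 5408 to 5668 CPM in wild-type and 3597 to 4167 CPM in knockout livers. Psat1, of serine synthesis, rose from 0.773, 0.251 and 0.825 to 41.5, 18.3 and 37.7 CPM (5.71 ± 0.44). Asns, asparagine synthetase, rose by 2.24 ± 0.45. Trib3 rose by 1.95 ± 0.32. The translation inhibitor Eif4ebp1 rose by 2.02 ± 0.13. For Psat1, Asns and Trib3 knockout library b was the lowest of its group. The death factor Ddit3 (CHOP) stood at 0.43 ± 0.21 (adjusted p = 0.0855, 0.0422 without knockout library b).

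The unfolded protein response of the endoplasmic reticulum (ER) went down instead, in 20 of 29 genes with 1 up, the mannosidase relative Edem2 (0.80), at a median of −0.49. The chaperone Hspa5 (BiP) fell from 394, 393 and 497 to 219, 245 and 289 CPM (−0.77 ± 0.16). Hsp90b1 fell by 1.16 ± 0.15. Calr fell by 1.08 ± 0.14, while the sensor target Xbp1 was at −0.09 ± 0.13 (adjusted p = 0.567). With library sizes alone this list had 7 higher, 8 lower and a median of 0.02, so its direction depends on the scaling. Targets of p53 rose in 20 and fell in 2 of 30 cases (median 1.22), the falls being Dcxr (−2.36) and Ei24 (−0.93). Bax, which permeates mitochondria in apoptosis, went from 14.9, 14 and 12.5 to 54.7, 58.8 and 58.8 CPM (2.05 ± 0.13). The death receptor Tnfrsf10b rose by 5.71 ± 0.38. Mdm2 rose by 1.11 ± 0.12. The stress hormone Gdf15 rose by 2.95 ± 0.24. Cdkn1a, the p53 target p21, did not pass the test (0.62 ± 0.35, adjusted p = 0.151).

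Interferon-stimulated genes, the antiviral effectors that cells make after type 1 or type 2 interferon, rose in 52 of 56 tested cases and fell in 0 (median 2.12). Many carry an interferon-stimulated response element, which IRF and STAT proteins bind. The spelling GAAANNGAAA, on either strand and with overlapping matches counted, stood in the windows of 21 of 41 listed genes that have one (51.2%), in 3.97% of those of all tested genes and in 3.99% of those of all genes. The stretches of 6 genes are printed here from RefSeq (GRCm38.p6) so that the element can be compared among members; they were chosen after their values were seen, to show 1, 2 and 3 matches and different gene families. Each is given 5′ to 3′ on the strand of its gene, with matches in capitals. A match on the opposite strand appears as its reverse complement.
Isg15: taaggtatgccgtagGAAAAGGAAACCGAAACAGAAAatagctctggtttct
Ifit1: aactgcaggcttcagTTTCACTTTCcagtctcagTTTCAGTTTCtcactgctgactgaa
Oas3: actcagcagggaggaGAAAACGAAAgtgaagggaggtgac
Cxcl10: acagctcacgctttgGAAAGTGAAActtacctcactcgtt
Gbp2: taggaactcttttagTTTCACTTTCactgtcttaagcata
Bst2: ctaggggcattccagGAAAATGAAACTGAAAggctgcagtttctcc
They lie at chr4:156200860-156200911 (minus strand), chr19:34640770-34640828 (plus), chr5:120777710-120777749 (minus), chr5:92349078-92349117 (minus), chr3:142620589-142620628 (plus) and chr8:71537572-71537617 (minus). Isg15 has 3 matches, of which neighbours overlap, Ifit1 and Bst2 have 2 and the others 1.

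Isg15, a ubiquitin-like protein attached to other proteins, rose from 1.68, 1.25 and 2.34 to 30.3, 49.1 and 34.5 CPM (4.44 ± 0.42, adjusted p = 4.14e-07). Ifit1, which binds foreign RNA, rose from 6.44, 4.63 and 7.56 to 54.9, 115 and 63 CPM (3.65 ± 0.35). Cxcl10, a chemokine for T cells, rose from 1.80, 2.25 and 2.89 to 61.6, 107 and 51.8 CPM (4.99 ± 0.47). Knockout library b was the highest for these 3 genes, and the groups did not overlap. Oas3, an activator of RNase L, rose by 4.38 ± 0.33. Gbp2, a guanylate-binding protein, rose by 2.78 ± 0.33. Bst2, which tethers budding virus, rose by 1.86 ± 0.14. Oasl1, for which no match was found in the window, rose by more than these 6, from 11.2, 8.14 and 14.6 to 419.8, 438 and 512 CPM (5.34 ± 0.27, adjusted p = 1.57e-09). Irf7, the factor that amplifies the response, rose by 2.83 ± 0.16. The GTPase Mx1 rose by 4.52 ± 0.50, 5.31 without wild-type library c. The deconjugase Usp18 rose by 3.78 ± 0.24. The 4 members that did not pass the test were Stat2 (0.35 ± 0.17, adjusted p = 0.102, 0.00922 without knockout library c) and B2m (−0.26 ± 0.12, adjusted p = 0.0785), which have a match each, and Iigp1 (−0.20, adjusted p = 0.419) and Dtx3l (−0.02, adjusted p = 0.92).

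**Figure D4:**
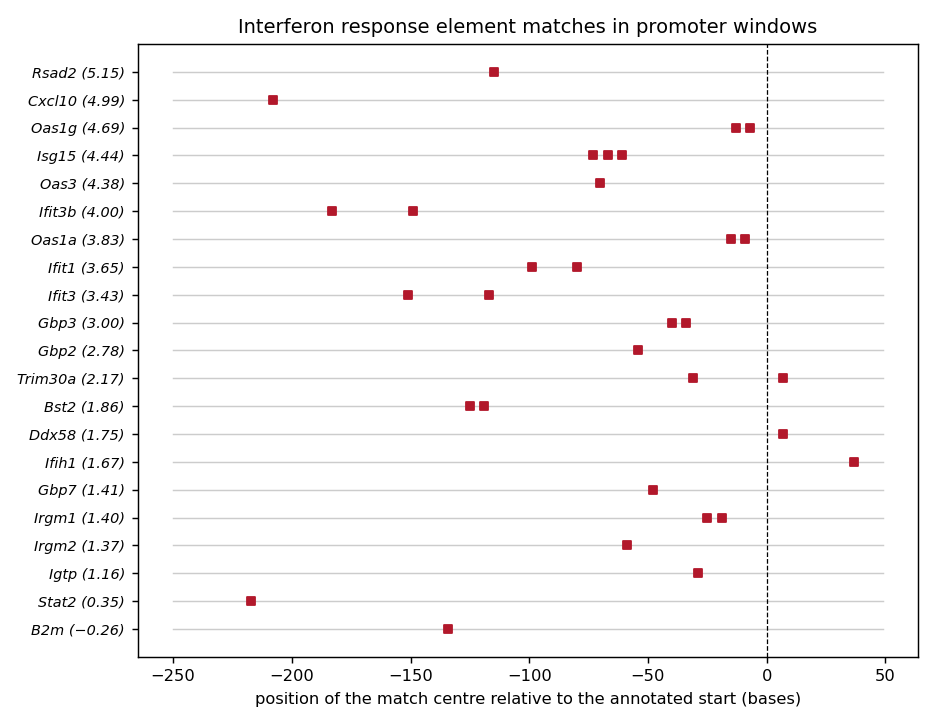
Positions of matches to the interferon-stimulated response element (squares, at the centre of each match) along the promoter windows of the 21 listed genes that have one, in bases from the annotated start, ordered by log2 fold change, which stands beside each name. Most matches lie upstream of the start, and genes with 1 match are found from the top (Rsad2) to the bottom (B2m) of the order. The matches of Trim30a, at 2 and −36, come from separate windows with 1 match each and are drawn on the same row.

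Sensors of nucleic acids and their signalling partners rose in 20 of 26 cases (median 1.57) and fell in 4, the adaptors Mavs (−1.42) and Ticam1 (−0.64), the factor Irf3 (−1.02) and the receptor chain Ifnar2 (−0.35, adjusted p 0.0594 to 0.0638 without knockout library a or wild-type library a or b). The RNA sensor Ddx58 (RIG-I) went from 24, 20 and 23.8 to 64.6, 85.3 and 78 CPM (1.75 ± 0.16). The DNA sensor Cgas rose by 1.90 ± 0.39 from under 1 CPM. Its partner Tmem173 (STING) rose by 1.41 ± 0.19. The receptor chain Ifngr1 rose by 1.78 ± 0.13. Of 23 antigen presentation genes 14 rose and 0 fell (median 0.57). The peptide loader Tapbp rose by 1.54 ± 0.10. The class 1 chain H2-D1 rose by 0.70 ± 0.10, whereas H2-K1 was at −0.20 ± 0.10 (adjusted p = 0.113) and the class 2 genes H2-Aa and Cd74 at 0.22 (adjusted p = 0.445) and 0.32 (adjusted p = 0.204).

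Chemokines that draw monocytes rose steeply. Ccl2 went from 1.03, 1.25 and 0.687 to 127, 89.4 and 161 CPM (6.96 ± 0.34, adjusted p = 1.3e-09). Ccl7 had 0 counts in wild type and 13, 11.9 and 20.7 CPM in knockout livers, at least 38.9-fold higher at a floor of 3 counts per library. Neither gene overlapped between groups. Tgfb2 (4.71 ± 0.23) and Lif (3 counts over the wild-type libraries and 398 over the knockout ones, 73.4-fold, 24.9 to 357, exact 95% counting interval; 151-fold without wild-type library c), cytokines of repair, and Cxcl1, which draws neutrophils (3.74 ± 0.53, 2.88 without knockout library c), rose, and Cxcl12, the chemokine of resting liver, fell (−1.97 ± 0.15). Of 30 tested chemokines and cytokines, from 40 in the table, 25 rose and 1 fell (median 1.45), and as a gene silent in wild type enters this count only through its knockout level, it speaks for the tested members alone. Targets of NF-κB rose in 18 of 23 cases (median 1.37), among them its brake Tnfaip3 (2.81 ± 0.32) and the adhesion molecules Vcam1 (2.15 ± 0.15) and Icam1 (1.84 ± 0.13). The mitochondrial dismutase Sod2 fell (−1.29). The inhibitor Nfkbia was at −0.14 ± 0.14 (adjusted p = 0.419, 0.0267 without knockout library c). Acute phase proteins, which the liver secretes in inflammation, split into 17 higher and 9 lower of 30 (median 0.53, 19 higher and 6 lower with library sizes alone). Lcn2, lipocalin 2, rose from 28.4, 12 and 22.4 to 896, 655 and 943 CPM (5.31 ± 0.43). Saa1 rose by 3.68 ± 0.33. Orm2 rose by 4.05 ± 0.28, while Saa4 (−2.00 ± 0.18) and Crp (−2.28 ± 0.18) fell.

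Markers of immune cells were higher in the same libraries, and their part in the interferon, chemokine and acute phase rises was not tested. Of 20 macrophage and Kupffer cell markers 19 rose and 1 fell, with a median of 1.72. Clec4f, which marks resident Kupffer cells, rose from 62.4, 83 and 88.5 to 205, 322 and 204 CPM (1.65 ± 0.18). Adgre1 (F4/80) rose by 1.72 ± 0.21. Cd68, a lysosomal protein of phagocytes, rose by 4.33 ± 0.17. Markers of recruited and lipid-laden macrophages rose in 16 of 19 (median 3.40): Trem2 went from 0.902, 1.00 and 0.962 to 15.7, 12.9 and 10.8 CPM (3.76 ± 0.24). Lgals3 rose by 4.05 ± 0.21. Chil3 went from 3 to 1431 counts over the libraries of each group (264-fold, 90.1 to 1280.4, exact 95% counting interval; at least 87.3-fold without wild-type library a, which held all 3). The monocyte receptor Ccr2 rose by 2.84 ± 0.39. The sum of this list was 6535 to 6611 CPM in wild-type and 4223 to 4324 CPM in knockout livers, and most of it was Apoe, which hepatocytes also make and which fell from 6532, 6522 and 6451 to 3145, 3432 and 3341 CPM.

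Neutrophil transcripts stayed scarce. Their 12 tested markers summed to 5.39 to 6.87 CPM in wild-type and 33.7 to 58.4 CPM in knockout livers, with 10 higher (median 3.92, 3.65 with genes at 0 counts set to their bound), and S100a9 rose from 0.258, 0.125 and 0.137 to 3.56, 5.11 and 2.81 CPM (4.38 ± 0.48). The defining marker Ly6g had 0 counts in wild type and 5 over the 3 knockout libraries. In fed livers the neutrophil markers summed to 23.4 to 42.8 CPM in wild type and 58.4 to 74.4 CPM in knockout. Of 17 tested T, B and NK cell markers 9 rose and 0 fell (median 1.46, 0.93 without knockout library b), and their sum was 33.7 to 59.2 CPM in wild-type and 82.1 to 191 CPM in knockout livers. Another 4 of the 21 listed had too few counts to be tested, so this count speaks for the tested members alone. In fed livers the tested markers summed to 143 to 194 CPM in wild type and 84.8 to 169 CPM in knockout. Cd8a rose by 2.39 ± 0.56, 3.35 without wild-type library b. Gzmb rose by 2.85 ± 0.56, both from under 1 CPM. Cd3e was at 0.51 ± 0.42 (adjusted p = 0.319).

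Matrix genes rose in 38 of 49 cases (median 2.05) and fell in 4, the laminin chains Lamb3 and Lama3 (−2.74), Col18a1 (−1.74) and fibronectin, Fn1 (−1.36), of which hepatocytes are known to make the last. Their summed level was lower, at 4379 to 5089 CPM in wild-type and 3872 to 3959 CPM in knockout livers. Col1a1, the main fibrillar collagen, rose from 6.06, 5.64 and 7.70 to 156, 123 and 111 CPM (4.33 ± 0.22, adjusted p = 1.74e-09), with every knockout library far above wild type. Col3a1 (3.05 ± 0.20), the basement membrane collagen Col4a1 (2.20 ± 0.12), the inhibitor of matrix proteases Timp1 (4.05 ± 0.66, 3.32 without knockout library a) and the plasminogen system members Plat (4.76 ± 0.32) and Plaur (4.75 ± 0.22) rose too. Markers of stellate cells, the liver's collagen-making cells, were in part higher: 10 of 18 were higher and 1 lower, Reln (−0.49, adjusted p 0.0664 to 0.107 without knockout library a or wild-type library b or c; median 0.65, sums of 963 to 1039 and 1068 to 1252 CPM), with Pdgfrb at 1.01 ± 0.15, Acta2 at 1.12 ± 0.22 and Lrat at 0.40 ± 0.18 (adjusted p = 0.0722, 0.025 to 0.0266 without knockout library a or wild-type library b). Their part in the collagen rise was not tested. Endothelial markers gave 6 higher and 2 lower of 18 (median 0.21, 14 higher and 1 lower with library sizes alone), with Lyve1 higher (2.24 ± 0.16) and Kdr (−0.88 ± 0.14) and Clec4g (−0.49) lower.

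Genes of other epithelia were higher in knockout livers. Krt8 rose from 174, 165 and 146 to 987, 859 and 1551 CPM (2.81 ± 0.24). Its partner Krt18 rose by 2.54 ± 0.24. Hepatocytes and ducts share these keratins. Sox9, a factor of bile ducts and injured hepatocytes, rose from 14.8, 23.3 and 15.4 to 135, 84.8 and 152 CPM (2.79 ± 0.24). The tight junction protein Cldn4 rose from 0.387, 0 and 0.275 to 79.3, 32.8 and 74 CPM (8.09 ± 0.55, 8.80 without wild-type library a). The duct keratins Krt19 (2.30 ± 0.37) and Krt7 (1.80 ± 0.44) and Epcam (1.12 ± 0.38, adjusted p = 0.0188, 0.0563 to 0.0656 without knockout library b or wild-type library b or c) rose at low levels. Of 18 tested ductal genes 13 rose (median 1.54) and 2 fell, Onecut1 (−1.48) and Krt23 (−1.05). Among squamous and keratinocyte genes only 18 of 32 had enough counts to be tested, with 13 higher and 2 lower (Lamb3 and Lama3), so this count speaks for those alone. Sprr1a, a cornified envelope protein, rose from 0.129, 0.125 and 0.550 to 146, 162 and 256 CPM (9.43 ± 0.41, 10.44 without wild-type library c) and Ly6d, a surface protein of keratinocytes and B cells, from 3.87, 2.00 and 6.46 to 348, 327 and 376 CPM (6.42 ± 0.28). Krt5 had 0 counts in wild type and 6.04, 6.20 and 11 CPM in knockout livers, at least 19.8-fold higher, whereas Krt6a, Krt6b and Krt15 had 0 counts in all 6 libraries and Trp63, the master factor of squamous cells, 4 in wild type and 1 in knockout. Lamb3, a laminin chain on the same list, fell from 35.6, 37.8 and 39.5 to 2.98, 2.32 and 1.67 CPM (−4.01 ± 0.28).

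Early response and growth genes rose along with them. In the AP-1 family 12 of 14 rose and 0 fell (median 1.51): Fosl1 went from 2 counts over the wild-type libraries to 90, 60.9 and 115 CPM (1009-fold, 279 to 8338, exact 95% counting interval, adjusted p = 1.3e-09). Fos rose by 3.20 ± 0.30. Atf3 rose by 3.21 ± 0.26. Junb rose by 0.96 ± 0.14, while Jun was at 0.48 ± 0.25 (adjusted p = 0.112). The AP-1 site TGANTCA, searched on both strands, has 2 matches in the window of Sprr1a and at least 1 in 6.73% of the windows of tested genes. Of 7 squamous genes with a window Sprr1a was the only 1 with a match (14.3%). The shares were 10 of 41 for interferon-stimulated genes (24.4%) and 0 of 12 for the AP-1 family.
Sprr1a: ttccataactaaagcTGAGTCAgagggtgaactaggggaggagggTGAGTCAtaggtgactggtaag
This stretch (chr3:92485976-92486042, minus strand, RefSeq, GRCm38.p6) is shown because Sprr1a was among the largest rises, and the capitals mark both matches. Myc rose from 18.7, 19.4 and 15.9 to 136, 113 and 166 CPM (2.94 ± 0.24). Klf6 rose by 3.63 ± 0.19. Ier3 rose by 4.62 ± 0.26. In all, 19 of 28 early response genes rose (median 1.46). Zfp36 (−1.03) and Spry4 (−0.62, adjusted p 0.0625 to 0.265 without knockout library a, b or c or wild-type library b or c), feedback inhibitors of cytokine and growth factor signals, fell. Targets of YAP, the effector of the Hippo pathway, rose in 16 and fell in 1 of 25 (median 0.98), with Ccn1 at 2.71 ± 0.15, Ajuba at 3.17 ± 0.17 and, lower, Fgf1 (−3.19 ± 0.18). Of 49 cell cycle and replication genes 39 rose (median 2.38, 2.32 with genes at 0 counts set to their bound) and 2 fell, Tk1 (−1.72) and E2f8 (−1.59). Ccnd1, cyclin D1, rose from 12.9, 15.2 and 15.8 to 107, 151 and 117 CPM (3.09 ± 0.26). Mcm6, of the replication helicase, rose by 2.74 ± 0.25. Mki67, the proliferation marker, rose from 0.258, 0.251 and 0.825 to 8.58, 7.63 and 11.2 CPM (4.36 ± 0.54, 5.13 without wild-type library c). The cyclin kinase inhibitor Cdkn2b rose by 4.92 ± 0.42, 5.63 without wild-type library a.

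The largest changes with at least 5 CPM in the higher group and no overlap brought further genes to the list. The ranking used the fitted log2 change. For a gene with 0 counts in a group only the bound given here is measured, so its rank among the largest is uncertain. Beside those already named, rises were found in Gpx2, a glutathione peroxidase (0 counts in wild type, 7.27, 10.3 and 9.65 CPM in knockout, at least 23.2-fold higher), in F13a1, a transglutaminase of macrophages (at least 20.6-fold), in Gml (at least 20.1-fold), in Krt20 (at least 18.7-fold), in Arhgap22 (at least 14.3-fold) and in Serpinb9d and Serpinb9g (at least 18.6-fold and 17.3-fold), which belong to a cluster of near copies. Dmbt1, a secreted scavenger receptor-like protein, rose from 1 count over the wild-type libraries to 9.16, 36.4 and 42.6 CPM (675-fold, 121 to 26687, exact 95% counting interval; at least 77-fold without wild-type library c, which held that count), with a wide spread among knockout livers. Among the 12 largest falls, Mup19, a major urinary protein, was at 60.1, 4.51 and 141 CPM in wild type and 0 counts in knockout livers, at least 315-fold lower (149-fold without wild-type library c). Mup12 (−7.50 ± 1.07, −5.58 without wild-type library b), Mup15 (−7.52 ± 1.61, −8.85 without knockout library a) and the pseudogene Mup-ps19 (−7.0 ± 0.76, −7.76 without knockout library c and −6.35 without wild-type library b) fell from levels that varied widely among wild-type libraries. Hsd3b5, a male-type steroid dehydrogenase, fell at least 33.4-fold, and Cyp4a12a from 411, 450.2 and 504 to 1.75, 3.88 and 4.03 CPM (−7.14 ± 0.86). Elovl3, a fatty acid elongase (−8.21 ± 0.78, −7.50 without wild-type library b), and Hsd17b6 (−7.17 ± 0.68, −7.87 without knockout library b) fell. The transporter Slc6a16 fell from 12.4, 12.5 and 14.2 CPM to 2 counts over the knockout libraries (270.4-fold, 74.2 to 2243, exact 95% counting interval), and the transcription factor Pitx3 from 222 counts to 1 (402-fold, 71.3 to 15929.5; 130.1-fold without wild-type library b and at least 43.6-fold without knockout library a).

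Whether the contrast differed from that in fed liver was tested as the fasted minus the fed log2 change. In fed livers 46.3% of features passed the test of knockout against wild type, and 12.1% (2879 features, 1517 with a positive and 1362 with a negative difference) passed that of the difference. Of 8886 features past the test in both states 8636 had the same sign. The falls of the fasting programme were larger in fasted liver. The difference passed, with a negative sign, for 19 of 27 β-oxidation genes (fed median −0.74), 16 of 26 gluconeogenesis genes (fed median −0.63) and 17 of 32 PPARα targets (fed median −0.46). It passed with a positive sign for none, none and 2 of them. Summed β-oxidation genes stood at 5454 to 6521 CPM in fed and 10836 to 11458 CPM in fasted wild type. In knockout livers they stood at 2962 to 3392 and 3026 to 3780 CPM. For gluconeogenesis genes the sums were 8227 to 8651 and 17469 to 17966 CPM, and 4523 to 6418 and 5330 to 5919 CPM in knockout. For PPARα targets they were 6704 to 7259 and 20185 to 20601 CPM, and 2862 to 3863 and 4143 to 5155 CPM in knockout. Cpt1a averaged 369 ± 81 CPM in fed wild-type and 379.7 ± 63.4 CPM in fed knockout livers (SD, n = 3), a change of 0.04 ± 0.16, against −1.60 ± 0.16 in fasted liver (difference −1.64 ± 0.23, adjusted p = 0.000328). Ppargc1a had opposite signs, with a rise of 0.96 ± 0.28 in fed and a change of −2.51 ± 0.28 in fasted liver (difference adjusted p = 7.63e-05).

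Other groups differed upwards. Immune genes did so in 29 of 56 interferon-stimulated genes (fed median 1.04) and 17 of 20 macrophage markers (fed median 0.64). None of either list differed downwards. Cd68 averaged 33.2 ± 5.19 CPM (SD, n = 3) in fasted and 97.9 ± 13.5 CPM in fed wild-type livers, and 666 ± 76.6 and 435 ± 55 CPM in knockout livers, so for this gene both the wild-type and the knockout levels lay apart between the states. Over the macrophage list the sums were 2234 to 3038 CPM in fed and 953 to 1293 CPM in fasted wild type. In knockout livers they were 3892 to 4457 and 3293 to 3921 CPM. Interferon-stimulated genes summed to 3440 to 3679 and 2592 to 2940 CPM in wild type and 4741 to 6264 and 5367 to 6654 in knockout. Cholesterol genes had 17 of 25 positive differences (fed median −0.27) and ER chaperones 16 of 29 (fed median −1.07). In wild type, fed then fasted, cholesterol genes summed to 4198 to 5231 and 2549 to 2967 CPM. ER chaperones summed to 7889 to 10108 and 5520 to 5913 CPM. The knockout sums were 3021 to 3310 and 2904 to 3359 CPM, and 3754 to 3960 and 3476 to 4103 CPM. Srebf1, the regulator of fat synthesis, had 602 ± 21.2 CPM in fed wild-type and 93 ± 12 CPM in fed knockout livers and rose in fasted ones from 43.4, 61.1 and 57.7 to 80.7, 72.5 and 79.7 CPM (difference 3.21 ± 0.19, adjusted p = 4.71e-07). Among genes above 5 CPM whose fasted groups did not overlap, the 9 others with the smallest adjusted p of the difference were Lpin2, a phosphatidate phosphatase (1.48 in fed and −1.05 in fasted liver), Nlrp12 (0.59 and −2.10), the receptor Erbb3 (0.70 and −1.49), Tmem200b (−2.56 and 1.15), Inf2 (−1.24 and 1.16), the prostaglandin synthase Ptgds (−2.74 and 4.10), Pik3r1, a regulatory subunit of class 1 kinases (−1.34 and 0.95), Obp2a (−3.31 and 2.30) and the cytokine receptor Lifr (−3.91 and −1.34).

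**Figure D5:**
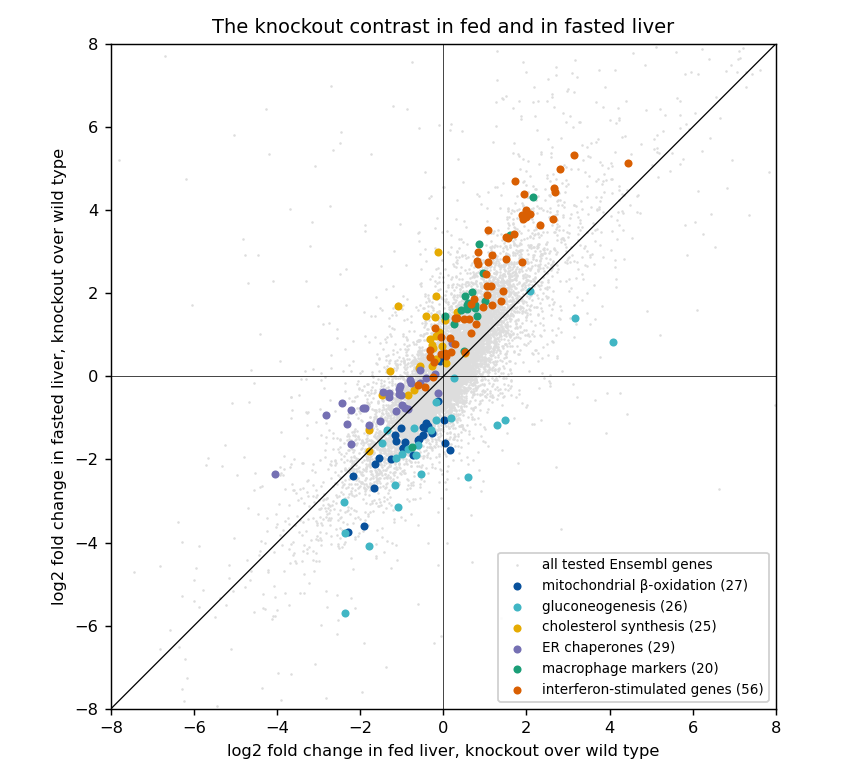
Log2 fold change of knockout over wild type in fasted liver against that in fed liver, with all tested Ensembl genes in grey, 6 lists in colour and the line of equal change, and with 51 genes outside the axes. β-oxidation and gluconeogenesis genes lie mostly below the line, and macrophage, interferon-stimulated, cholesterol and ER chaperone genes mostly above it.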

How the data were processed

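Poly(A)-enriched, dUTP-marked libraries of mouse liver were sequenced on a DNBSEQ-G400, per the labels' protocols. The authors deposited unnormalised counts for each gene. Per the submitters' processing notes, the tools were HISAT2, Subread, DESeq2 and edgeR, and the build was mm10. Versions, the strand setting of the counting and the handling of reads that overlap several features are not given in the sources used here. The table holds 48526 Ensembl and 87774 NONCODE identifiers, and NONCODE features took 21.2 to 24.8% of the counts of the fasted libraries. GENCODE M21 gave symbols for 48058 Ensembl identifiers. Where genes overlap on opposite strands their reads may not be told apart.

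All 12 liver libraries were fitted with edgeR 4.0.16 (R 4.3.3): filterByExpr, TMM factors, 1 mean per group and the quasi-likelihood F test, with Benjamini-Hochberg adjustment over all 23875 tested features and a threshold of 0.05. The standard error of a change was its size over the root of its F statistic. Columns name group but not replicate, so libraries were lettered a, b and c. Alternatives were DESeq2 1.42.0, RLE factors, library sizes alone, no filter, the 6 fasted libraries, Ensembl genes alone, and each fasted library left out. The fit was also run on simulated counts in which few features changed. That run does not test how the scaling behaves where a large share of features changes, as here. No pair of replicates agreed within sampling noise (chi-square per degree of freedom 6.59 to 13.4). Folds against groups with 0 counts use a floor of 3 counts per library, and intervals cover counting error only.

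The comparison and its gene lists were chosen with earlier results of these data known. Named genes are each list's key members whatever their p, up to 5 further members of each list with the smallest adjusted p, the 12 largest rises and 12 largest falls among Ensembl genes with no overlap and at least 5 CPM in the higher group, and up to 10 genes with the smallest adjusted p of the fasted and fed difference. Predicted genes (Gm, Rik) were left out of the last groups. Some genes that these rules name are not reported here. Others, among them Apoe, Ifnk, Rsad2 and those whose promoters are printed, were chosen after their values were seen. Promoter windows are RefSeq's (GRCm38.p6). Listed interferon-stimulated genes with no window include Dhx58, Ifi27, Ifi27l2a, Iigp1, Mx1, Mx2, Nlrc5, Oas1b, Oas2, Parp14, Parp9, Rtp4, Usp18 and Zbp1.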

Additional observations from a re-analysis of the deposited data

Results flagged for a closer look

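For 142 of the 327 genes named here the log2 change of knockout over wild type differed between fasted and fed liver by edgeR's test of the difference (adjusted p under 0.05), and that difference, fasted minus fed, is the value in parentheses below. It was positive for 75 and negative for 67. Over all tested features 12.1% passed the test of the difference (2879 of 23875). Up to 10 of the named genes were picked by the smallest adjusted p of this same test, so they pass it by construction. Groups of 3 libraries are too small for a test of single outlying samples, and no explanation of these differences was tested.

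For 20 genes the change passed the test in both states with opposite signs. Over all features this held for 250 of the 8886 that passed in both states. Srebf1, Lpin2, Nlrp12, Erbb3, Tmem200b, Inf2, Ptgds, Pik3r1 and Obp2a of these genes were picked by the test of the difference. Higher in fasted and lower in fed knockout livers were Srebf1 (3.21), Dmbt1 (11.50), Ptgds (6.84), Obp2a (5.61), Saa1 (4.72), Tmem200b (3.71), Gdf15 (3.52), Bhlhe41 (2.71), Inf2 (2.40), Pik3r1 (2.30) and Slc16a6 (2.23). The reverse held for Ppargc1a (−3.46), Peg3 (−2.91), Nlrp12 (−2.69), Lpin2 (−2.54), Erbb3 (−2.19), Ephx1 (−1.68), Npc1 (−0.95), Gaa (−0.87) and Ifnar2 (−0.62). Dmbt1 went from 109 ± 48.4 to 20.2 ± 20.1 CPM in fed livers (SD, n = 3), and Saa1 from 356 ± 60 to 172 ± 81.4 CPM.

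Among genes of energy supply the difference was negative for most. In lipid use it was so for Fgf21 (−2.52), Cyp4a14 (−3.34), Cidec (−3.31), Apoa4 (−3.30), Retsat (−2.25), Angptl4 (−2.22), Pdk4 (−1.75), Cpt1a (−1.64), Acsl1 (−1.46), Apoa5 (−1.31), Pnpla2 (−1.22), Slc27a2 (−1.13), Plin5 (−1.06), Acat1 (−0.95), Acadm (−0.91), Plin2 (−0.91), Hadha (−0.83), Cpt2 (−0.76) and Slc16a1 (−0.66). It was positive for Fabp4 (1.18). In the use of amino acids and the synthesis of glucose it was negative for G6pc (−3.34), Mat1a (−2.61), Sds (−2.31), Pck1 (−2.05), Pemt (−1.95), Cps1 (−1.74), Gls2 (−1.60), Tat (−1.54), Fh1 (−1.52), Fbp1 (−1.39), Asl (−1.38), Nnmt (−1.33), Tdo2 (−1.26), Pcx (−1.22), Gcgr (−0.88) and Ahcy (−0.76). It was positive for Enoph1 (0.81). In their regulators it was negative for Nr1i3 (−2.07), Klf15 (−1.56), Arntl (−1.31), Foxo3 (−0.87) and Foxo1 (−0.78). It was positive for Esr1 (0.61).

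In other metabolism it was positive for Thrsp (2.89), Sqle (2.10), Fasn (1.91), Hmgcs1 (1.21), Stard4 (1.03), Pkm (0.91), Cyp1a2 (0.83), G6pdx (1.43), Gstm3 (1.38), Pgd (1.16), Gpx2 (5.02), Cish (2.91), Lifr (2.58) and F11 (0.89). It was negative for Mup-ps19 (−5.61), Cyp8b1 (−4.37), Slc6a16 (−3.89), Hsd17b6 (−3.51), Baat (−0.89) and Dcxr (−0.88). Among autophagy and lysosome genes it was negative for Gabarapl1 (−1.60), Atg14 (−0.96), Nrbf2 (−0.93), Ulk1 (−0.81), Sqstm1 (−0.79), Bnip3 (−0.75) and Ei24 (−0.86). It was positive for Npc2 (0.54).

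Among immune genes it was positive for Ccl7 (7.09), F13a1 (5.82), S100a9 (3.57), Lcn2 (3.48), Cxcl1 (3.25), Ccl2 (3.07), Orm2 (3.00), Chil3 (2.82), Oas3 (2.44), Oasl1 (2.19), Cd68 (2.18), Cxcl10 (2.17), Gbp2 (1.97), Usp18 (1.87), Lgals3 (1.70), Tnfaip3 (1.62), Saa4 (1.59), Icam1 (1.52), Cd74 (1.49), H2-Aa (1.34), Irf7 (1.33), Adgre1 (1.15), Bst2 (1.12), Ddx58 (1.09), Clec4f (0.88), Ifngr1 (0.62) and Tapbp (0.46). Among stress, growth and structural genes it was positive for Uhrf1 (3.55), Meg3 (3.33), Ccnd1 (3.30), Col1a1 (2.57), Krt19 (2.51), Col3a1 (1.90), Mcm6 (1.67), Ajuba (1.56), Atf3 (1.35), Krt8 (1.23), Ly6d (1.21), Hspa5 (1.17), Lyve1 (1.11), Ccn1 (1.04), Klf6 (1.01), Dnmt1 (0.72), Xbp1 (0.71), Col4a1 (0.60) and Edem2 (0.58). It was negative for Lamb3 (−4.09), Col18a1 (−0.87), Zfp36 (−0.86), Setd1b (−0.65) and Junb (−0.64).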

How the results depend on the processing

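The count of changed features, 13422, was 12370 to 13846 under DESeq2, RLE factors, no filter and the 6 fasted libraries alone, 15307 with library sizes alone, 12359 to 12900 with 1 library left out, and 9154 of 14423 Ensembl genes fitted alone. With library sizes alone 11731 were higher and 3576 lower, and 10298 of the 13422 calls kept their direction. DESeq2 kept 12913 of them, with 6727 higher and 6351 lower. The count for the fasted and fed difference, 2879, was 2528 to 3810 under the 5 alternatives run for it. Of the 327 named genes 22 changed sign, in each case with library sizes alone, which then gave B2m 0.25, Clec4g 0.0233, Creb3l3 0.0956, Dtx3l 0.49, Ephx1 0.0275, Gaa 0.0033, H2-K1 0.31, Idh3a 0.34, Ifnar2 0.16, Nfkbia 0.37, Pik3c3 0.51, Pik3r4 0.44, Pnpla2 0.46, Reln 0.0209, Rubcn 0.39, Sc5d 0.19, Scarb2 0.25, Slc16a1 0.0927, Stard4 0.0652, Tfeb 0.13, Uvrag 0.38 and Xbp1 0.42. Of named genes 17 that passed the test lost it without 1 library and 8 gained it, as given beside them. Ratios that rest on 1 to 3 counts moved by 1.51 to 1.55 times, inside their intervals, for some genes without a library that held none of those counts. No paired analysis was possible because the count columns carry no replicate numbers. Leaving out a library leaves its group with 2, and the pooled fit assumes that they vary like the other groups. Depth limits genes under about 1 CPM, where 1 library's floor of 3 counts is 0.204 to 0.412 CPM, and a count of 0 there does not show that a gene is silent.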

Other observations

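Genes of the circadian clock were lower at this single time point, zeitgeber time 14. Of 20 tested clock genes 15 fell and 1 rose, Bhlhe41 (1.41, adjusted p 0.0589 to 0.0802 without knockout library c or wild-type library c), with a median of −1.13. Arntl, which encodes the activator BMAL1, stood at 26, 29.6 and 22.4 CPM in wild-type and 3.42, 5.92 and 5.17 CPM in knockout livers (−2.42 ± 0.25, adjusted p = 1.07e-06). Dbp, an output gene of the clock, stood at 43.7, 37.5 and 32.7 and 14, 12.9 and 9.27 CPM (−1.65 ± 0.35, adjusted p = 0.00099). The repressors Per1 (−0.31, adjusted p = 0.199) and Nr1d1 (−0.46, adjusted p = 0.335) did not pass the test. With 1 time point a shift in phase and a change in mean level cannot be told apart.

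Genes for making ribosomes rose in 21 of 33 cases and fell in none (median 0.52), while proteasome subunits fell in 21 of 30 and rose in none (median −0.48, but 0.03 with library sizes alone, with 4 higher and 3 lower). Heat shock proteins fell in 11 of 16 cases and rose in 3, Hspa4 (0.63), Hspb1 (0.62) and Cryab (0.53, adjusted p 0.0542 to 0.0561 without knockout library a or wild-type library a), with a median of −0.76 (4 higher and 6 lower with library sizes alone). Among fetal and imprinted growth genes 8 of 15 rose and 2 fell (10 higher and 1 lower with library sizes alone), Peg3 (−1.37) and Cdkn1c (−0.90, adjusted p 0.0551 to 0.136 without knockout library a or wild-type library a or b), and the classical fetal liver genes H19 (0.19, adjusted p = 0.793), Igf2 (−0.24, adjusted p = 0.592) and Gpc3 (0.36, adjusted p = 0.502) were among the 5 that did not pass, with Meg3 and Mest.

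The genes that encode interferons themselves gave few counts, although 52 of 56 interferon-stimulated genes rose. Of 21 such genes listed 17 had 0 counts in all 6 fasted libraries, and together they had 0 counts in the 3 wild-type and 79 in the 3 knockout libraries. Of the 79 counts 72 fell to Ifnk, the keratinocyte interferon, with 23, 27 and 22 in knockout libraries a, b and c, at least 4.41-fold higher than a floor of 3 counts per wild-type library. Ifng had 5 counts, Ifnb1 1 and Ifnz 1. Ifnk was singled out after its values were seen, and no value here shows which cells made it.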
